A study of Caenorhabditis elegans with 6 samples.

Results

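The genes described here encode the enzymes that build long and polyunsaturated fatty acids in *C. elegans*, the desaturases *fat-1* to *fat-4* and the elongases *elo-1* to *elo-6*. They were taken by symbol, and all 10 were found among the 46739 genes of the deposited table. Whole-animal mRNA was sequenced from 3 biological replicates of wild-type animals (strain PMD121) and 3 of *nhr-49(nr2041)* mutants (strain PMD122). Both strains were raised at 20°C on HT115 bacteria carrying the empty RNAi vector and harvested as late L4 larvae, so control RNAi feeding is shared by all 6 libraries. PMD121 and PMD122 are homozygous F2 lines from a cross of N2 with the *nhr-49* mutant strain STE68, and each genotype is therefore represented by 1 line. Expression is given as RPKM, which scales reads by gene length and library size, so levels can be set beside each other between genes. The genotypes were compared with limma on log2(RPKM + 1) over the 13965 genes that reached 1 RPKM in 3 or more libraries, and a gene was called changed at a Benjamini-Hochberg adjusted p under 0.05. All 10 genes passed this filter on low values.

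Unlike mammals, *C. elegans* makes its polyunsaturated fatty acids from saturated precursors. The stearoyl-CoA desaturases FAT-6 and FAT-7 make oleic acid, FAT-2 turns oleic acid into linoleic acid, and FAT-3, ELO-1 and FAT-4 then carry the chain to arachidonic acid, while FAT-1 makes the omega-3 forms and so contributes to eicosapentaenoic acid. ELO-2 lengthens palmitic acid and takes part in polyunsaturated elongation, and ELO-5 and ELO-6 make the monomethyl branched-chain fatty acids that the worm needs for growth. *nhr-49* encodes a nuclear hormone receptor known for its control of fatty acid desaturation and β-oxidation.

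The *nhr-49* transcript was measured first as a check of the labels. It was at 39.4, 40.8 and 37.8 RPKM in wild-type libraries against 26.1, 22.1 and 26.1 RPKM in *nhr-49(nr2041)* libraries, with no overlap. limma gave a log2 fold change of -0.65 with SE 0.11 (adjusted p = 0.016). With 1 library left out at a time the adjusted p ran from 0.014 to 0.093, and it was above 0.05 without any one of the wild-type replicates and without mutant replicate 2. With a replicate block it was 0.096. *nr2041* is a partial deletion, and reads from outside the deleted part can remain. The library totals implied by the RPKM were between 24523159 and 30183162 reads. Over all genes tested, the median log2 fold change was 0.10, and it was -0.04 after quantile normalization. The first principal component (59.4% of the variance) separated the genotypes, with mutant replicate 1 at 48.1 and the other mutant libraries at 22.9 and 18.8. On the second (22.4% of the variance), wild-type replicate 2 (-32.0) and mutant replicate 1 (-19.3) lay below 0. The other libraries lay above 0 on it, from 4.85 to 24.1, with mutant replicate 3 the highest.

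Of the 10 genes, 9 lie on chromosome IV and 1, *elo-4*, on chromosome III of WBcel235 (gene models of Ensembl release 115). *fat-1* (Y67H2A.8, IV 13315644 to 13318811, plus strand, 3 exons) and *fat-2* (W02A2.1, IV 13323873 to 13326395, plus strand) are neighbours with 5061 bp between them. *fat-4* (T13F2.1, IV 9799429 to 9802226) and *fat-3* (W08D2.4, IV 9803023 to 9806119) are closer still, with 796 bp between them, and both are on the plus strand. *elo-5* (F41H10.7, IV 5374616 to 5377117, 4 exons) and *elo-6* (F41H10.8, IV 5386629 to 5388559, 3 exons) are both on the minus strand and 9511 bp apart. *elo-1* (F56H11.4, IV 9526366 to 9528336) lies on the plus strand next to the elongase gene *elo-7*, 1610 bp away. The others are *elo-2* (F11E6.5, IV 17466062 to 17467408, minus strand, 5 exons), *elo-3* (D2024.3, IV 7237718 to 7240488, plus strand, 4 exons) and *elo-4* (C40H1.4, III 9332269 to 9334274, minus strand, 5 exons). Exons of *elo-3*, *elo-4* and *elo-5* overlap a protein-coding gene on the opposite strand by up to 44, 16 and 162 bp. Whether reads were counted by strand is not given in the sources used here, so reads of these overlaps cannot be assigned. The overlapping genes reached at most 6.69 RPKM in any library for *elo-3* (*gstk-2*), 15.1 RPKM for *elo-5* (F41H10.3) and 58.2 RPKM for *elo-4* (*ufc-1*), the last above every value of *elo-4* itself.

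All 10 genes were well expressed. Their values ran from 30.5 to 682 RPKM, and between 800 and 15529 reads stood behind each value. In wild-type animals *elo-6* was highest, at 477 ± 14.4 RPKM (SD, n = 3 per genotype here and below), followed by *elo-1* at 390 ± 34.8 RPKM and *fat-2* at 346 ± 31.1 RPKM. The ranges of *elo-1* and *fat-2* overlapped, so their order is not settled. Next came *fat-1* at 271 ± 25.2 RPKM, *elo-5* at 216 ± 11.0 RPKM, *elo-2* at 184 ± 13.1 RPKM and *fat-4* at 141 ± 14.03 RPKM, each with a range that did not overlap that of the next. *elo-3* (122 ± 6.57 RPKM) and *fat-3* (106 ± 17.7 RPKM) overlapped, and *elo-4* was lowest at 31.8 ± 1.38 RPKM. By wild-type mean, *elo-4* was at the 77.9th percentile of all genes tested and the other 9 were between the 92.6th and the 98.0th. In the mutants *elo-6* and *elo-1* were still the highest and *elo-4* the lowest, but *elo-5* and *elo-2* now came before *fat-2* and *fat-1*. In that genotype the ranges of *elo-5*, *elo-2* and *fat-2* overlapped, as did those of *elo-6* and *elo-1*, *fat-1* and *fat-4*, and *fat-3* and *elo-3*. Levels depend on the gene length behind the RPKM: for *elo-3* that length was 963 bp, while its exons cover 1565 bp in Ensembl release 115, and for *fat-4* it was 1943 bp against 1540 bp.

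**Figure D1:**
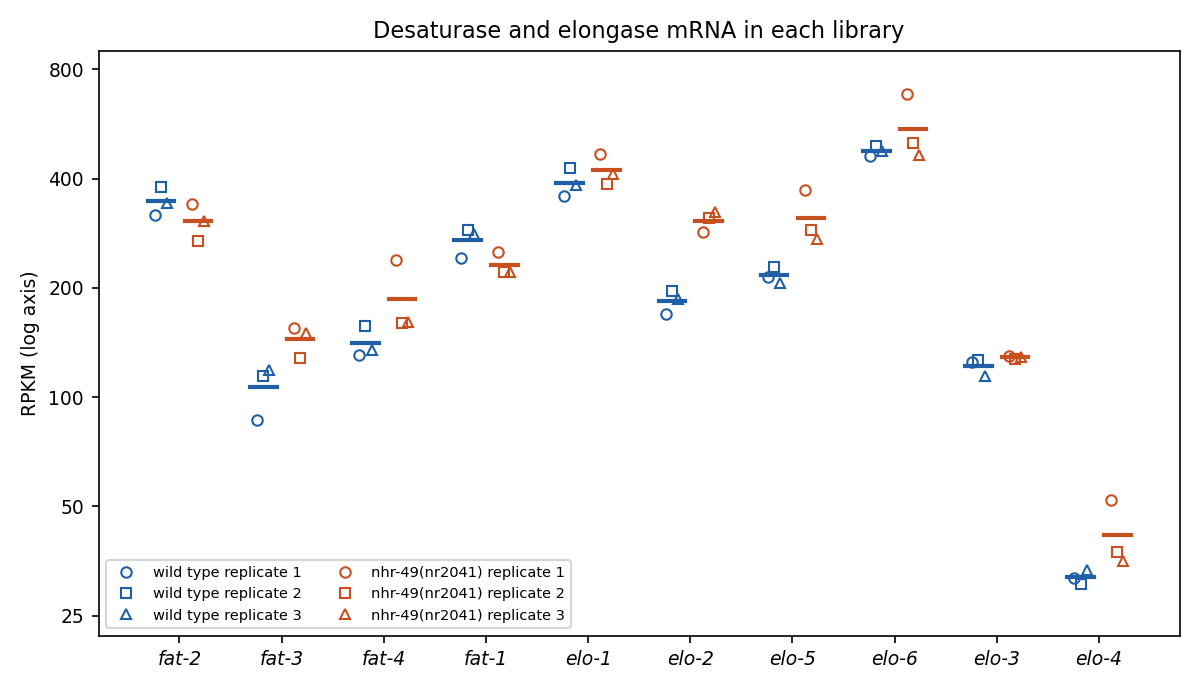
RPKM (log axis) of the 10 genes in each of the 6 libraries, with wild-type libraries in blue, *nhr-49(nr2041)* libraries in orange, a symbol for each replicate and a bar at the mean of 3. *elo-2* shows the widest gap between the genotypes, and the circle of mutant replicate 1 stands above the other mutant libraries for *fat-4*, *elo-4*, *elo-5* and *elo-6*.

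Loss of *nhr-49* was accompanied by a higher level of *elo-2* mRNA, the only change among the 10 genes that passed the test. Of the 10, 1 rose (3.32% of all genes tested were called higher), 0 fell (0.816% were called lower) and 9 did not pass, while 4.13% of all genes were called in either direction. At an unadjusted p under 0.05 the counts were 3 higher (*elo-2*, *elo-5* and *fat-3*, against 10.9% of all genes) and 0 lower (2.28% of all genes), with 13.2% of all genes in either direction, and limma voom on whole reads recovered from the RPKM also gave 1 higher and 0 lower. The log2 fold change was above 0 for 8 of the 10 genes (67.3% of all genes) and below 0 for *fat-1* and *fat-2*. All 3 mutant libraries lay above all 3 wild-type libraries for 6 genes, *elo-2*, *elo-3*, *elo-4*, *elo-5*, *fat-3* and *fat-4* (17.6% of all genes), and none lay wholly below (3.78% of all genes). The median over the 10 genes was 0.27, and 0.10 over all genes tested. Relative to that 0.10 the change was 0.40 for *elo-5*, 0.34 for *fat-3*, 0.28 for *fat-4*, 0.25 for *elo-4*, 0.08 for *elo-6*, 0.01 for *elo-1* and -0.02 for *elo-3*. For the 9 genes that did not pass, the 95% intervals of the log2 fold change together reached from -0.50 to 0.83, so all 9 lay inside a change of 1 in either direction.

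**Figure D2:**
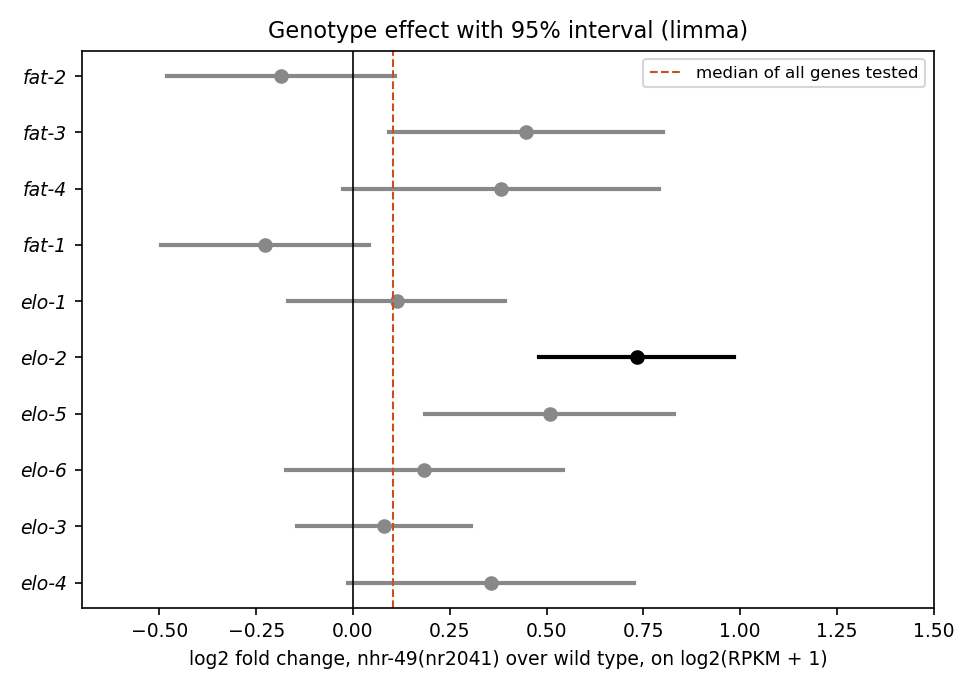
Log2 fold change of each gene in *nhr-49(nr2041)* mutants over wild-type animals on log2(RPKM + 1), with points for the limma estimate and bars for its 95% interval (3 libraries per genotype). The black point and bar mark *elo-2*, which passed the test, grey ones did not, and the dashed line is the median of all genes tested (0.10).

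The desaturase genes *fat-2* and *fat-1* were not called, and their means were lower in the mutants. *fat-2*, which makes linoleic acid from oleic acid, was at 318, 379 and 342 RPKM in wild-type libraries against 340, 269 and 306 RPKM in mutant libraries. These ranges overlapped widely, with a log2 fold change of -0.19 (SE 0.13, 95% interval -0.48 to 0.11, adjusted p = 0.604 from limma). *fat-1*, the omega-3 desaturase, was at 242, 289 and 282 RPKM in wild-type animals and at 251, 222 and 221 RPKM in the mutants. Here the overlap came from wild-type replicate 1 and mutant replicate 1 alone. The log2 fold change of *fat-1* was -0.23 (SE 0.12, 95% interval -0.50 to 0.04, adjusted p = 0.469 from limma). Relative to the median of all genes these changes were -0.29 for *fat-2* and -0.33 for *fat-1*. Both stayed below 0 with each library left out in turn and under both other scalings of the libraries, and neither passed the test in any of these settings.

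The neighbouring desaturase genes *fat-3* and *fat-4* had higher means in the mutants, without passing the test. *fat-3*, whose product puts the front-end double bond into linoleic acid, was at 86.2, 115 and 118.6 RPKM in wild-type libraries against 155.2, 128 and 150 RPKM in mutant libraries. Every mutant library was above every wild-type library, and wild-type replicate 1 was the lowest. On the log2 scale *fat-3* was higher by 0.45 (SE 0.15, 95% interval 0.09 to 0.80, adjusted p = 0.240 from limma). *fat-4*, whose product makes arachidonic acid, was at 131, 157 and 135 RPKM in wild-type animals and at 238, 160 and 161 RPKM in mutant libraries. Its groups were separated by only 3.38 RPKM, and mutant replicate 1 was far above the rest. The log2 fold change of *fat-4* was 0.38 (SE 0.17, 95% interval -0.03 to 0.79, adjusted p = 0.413 from limma), and it was 0.19 without mutant replicate 1.

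*elo-2* rose by a factor of 1.66 on the log2(RPKM + 1) scale. It was at 170, 196 and 187 RPKM in wild-type libraries against 284, 312 and 323 RPKM in mutant libraries. The lowest mutant library was 88.6 RPKM above the highest wild-type library, the widest such gap among the 10 genes. This amounted to a log2 fold change of 0.73 (SE 0.11, 95% interval 0.48 to 0.98, adjusted p = 0.0074 from limma), or 0.63 relative to the median of all genes. By unadjusted p, *elo-2* ranked 329th of the 13965 genes tested. The estimate ran from 0.61 to 0.83 over 16 alternatives, and the call was lost in 2 of them, without wild-type replicate 3 (adjusted p = 0.052) and without mutant replicate 2 (adjusted p = 0.050). The genes on either side of *elo-2* were low in all libraries. F11E6.6, 75 bp away on the same strand, was at 3.93, 4.61 and 4.26 RPKM in wild-type libraries against 8.22, 6.08 and 3.90 RPKM in mutant libraries (limma estimate 0.38 on the log2 scale, adjusted p = 0.582), and F11E6.4 on the other side had a log2 fold change of -0.11. *elo-1*, the elongase best known for making the longer polyunsaturated chains, did not separate the genotypes. It was at 357, 427 and 385 RPKM in wild-type libraries against 469, 386 and 410 RPKM in mutant libraries. Its log2 fold change was 0.11 (SE 0.12, 95% interval -0.17 to 0.39, adjusted p = 0.736 from limma), and it was -0.01 when library medians were set equal.

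The branched-chain elongase genes *elo-5* and *elo-6* had higher means in the mutants, and neither was called. *elo-5* was at 214, 228 and 207 RPKM in wild-type libraries against 372, 288 and 273 RPKM in mutant libraries. The groups did not overlap, and the gap of 44.4 RPKM was the next widest after that of *elo-2*. *elo-5* thus had a log2 fold change of 0.51 (SE 0.14, 95% interval 0.19 to 0.83, adjusted p = 0.121 from limma). Without wild-type replicate 2 and mutant replicate 1 together, *elo-5* passed as well (limma estimate 0.41 on the log2 scale, adjusted p = 0.0095). In that setting 2 of the 10 genes were higher, against 6.8% of all genes (9.31% in either direction), and without mutant replicate 1 alone the adjusted p of *elo-5* was 0.065. *elo-6* was at 463, 491 and 476 RPKM in wild-type libraries against 682, 501 and 466 RPKM in mutant libraries. Only mutant replicates 1 and 2 exceeded the wild-type range. For *elo-6* the log2 fold change was 0.18 (SE 0.15, 95% interval -0.17 to 0.54, adjusted p = 0.666 from limma), and it was 0.02 without mutant replicate 1.

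The elongase-family genes *elo-3* and *elo-4* had the smallest differences between genotype means in RPKM. *elo-4* also had the lowest level, and its log2 fold change was larger than those of *elo-1* and *elo-6*. *elo-3* was at 125, 126 and 114 RPKM in wild-type libraries against 130, 127 and 129 RPKM in mutant libraries. The mutant libraries were all above the wild-type ones, by as little as 1.07 RPKM. Its log2 fold change was 0.08 (SE 0.10, 95% interval -0.14 to 0.30, adjusted p = 0.766 from limma), and it was -0.05 when library medians were set equal. *elo-4* was at 31.7, 30.5 and 33.3 RPKM in wild-type libraries against 52.1, 37.5 and 35.4 RPKM in mutant libraries. Mutant replicate 1 again stood above the other libraries of its group. For *elo-4* the log2 fold change was 0.36 (SE 0.16, 95% interval -0.01 to 0.72, adjusted p = 0.396 from limma), and it was 0.19 without mutant replicate 1.

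**Figure D3:**
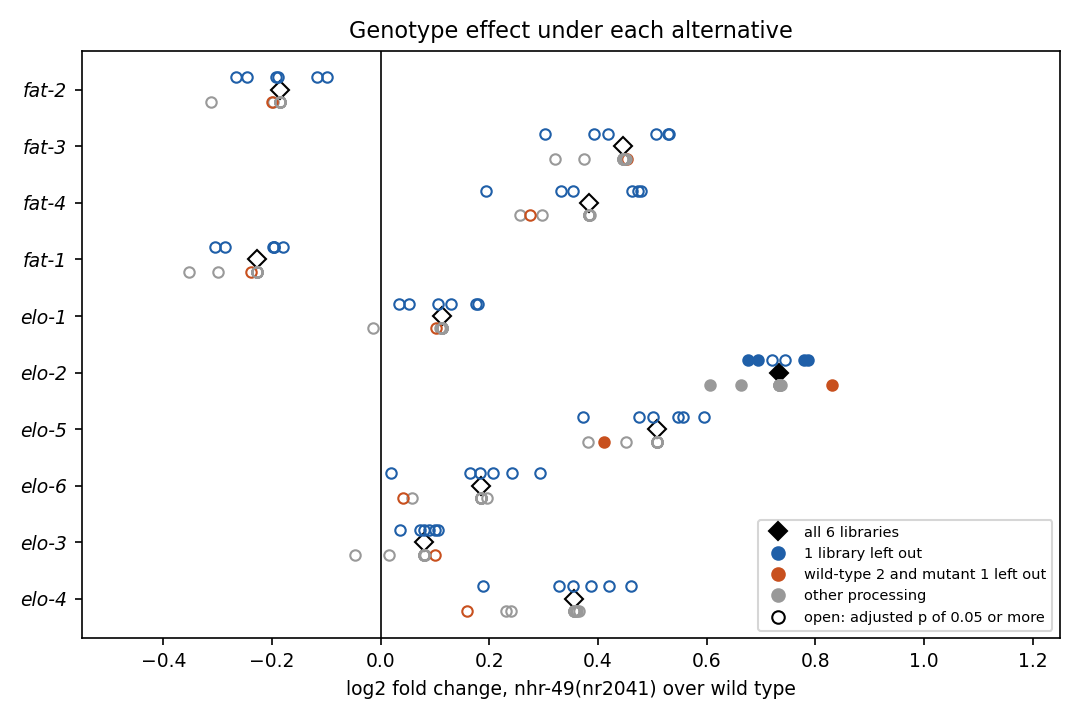
Log2 fold change of each gene with all 6 libraries (diamonds), with 1 library left out (blue), without wild-type replicate 2 and mutant replicate 1 (orange) and under other processing (grey). Filled symbols have an adjusted p under 0.05 from limma: *elo-2* with all libraries and in 14 of 16 alternatives, *elo-5* in 1, and no other gene.

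Mutant replicate 1 was the highest mutant library for 9 of the 10 genes, all but *elo-2* (53.5% of all genes tested), and the highest of all 6 libraries for 7. On the log2 scale it exceeded the mean of the other mutant libraries by 0.56 for *fat-4*, 0.51 for *elo-4*, 0.50 for *elo-6* and 0.41 for *elo-5*. The median of this difference over all genes was 0.13, and its 90th percentile was 0.63. For *elo-2* it was -0.16. Marker genes of other tissues also set this library apart. The summed level of 6 body wall muscle markers was 1402 RPKM in mutant replicate 1, against 2635 and 2316 RPKM in the other mutant libraries and 2837 to 2943 RPKM in wild-type animals. None of these 6 markers was called, and all 6 were lower in every mutant library than in every wild-type library (3.78% of all genes). The summed level of 5 hypodermal markers was 787 RPKM in mutant replicate 1, 606 and 637 RPKM in the other mutant libraries and 483 to 652 RPKM in wild-type animals, and 6 neuronal markers summed to 281 RPKM in that library and to 200 to 232 RPKM in the other 5. The 7 intestinal markers, for the main site of fatty acid synthesis, summed to 1712 to 2002 RPKM in wild-type libraries and to 1737 to 2168 RPKM in mutant libraries, with mutant replicate 1 the lowest mutant library. Most of these sums was *act-5*, at 1110 to 1307 RPKM in wild-type and 1025 to 1367 RPKM in mutant libraries. *ges-1* was lower in every mutant library than in every wild-type library (3.78% of all genes). *ifb-2* and *opt-2* were higher in every mutant library (17.6% of all genes), and the rest overlapped.

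Wild-type replicate 2, the other library that stood apart, was the highest wild-type library for 8 of the 10 genes. It had the lowest wild-type sums for 4 marker lists, among them 3 yolk protein genes (182 RPKM against 900.1 and 832 RPKM) and 5 sperm markers (72.2 RPKM against 183 and 154.6 RPKM). In mutant libraries the yolk sums were 236 to 442 RPKM and the sperm sums 119.3 to 171 RPKM. The 5 adult cuticle markers summed to 696 RPKM in wild-type replicate 2, to 1099 and 992 RPKM in the other wild-type libraries and to 685 to 927 RPKM in the mutants. Among them *col-19* was at 43.6 RPKM in wild-type replicate 2, against 244 and 211 RPKM, and at 79.1 to 102 RPKM in the mutants. *col-7* and *col-62* were also lowest in wild-type replicate 2. The abundant *bli-1* and *bli-2* differed less there, at 195 against 214 and 204 RPKM and at 439 against 516 and 476 RPKM. The 6 germline markers summed to 250 RPKM in wild-type replicate 2, against 387 and 366 RPKM, and to 148 RPKM in mutant replicate 1, the lowest of all 6 libraries, against 280 and 370 RPKM. For 4 pharyngeal muscle markers the sums were 104 to 121 RPKM in wild-type and 95.5 to 127 RPKM in mutant libraries. These sums hide opposite directions in mutant replicate 1. There *myo-1* (21.0 RPKM) and *myo-2* (18.3 RPKM) were at their lowest of all 6 libraries, and *tnc-2* (54.5 RPKM) and *ceh-22* (1.86 RPKM) at their highest. No marker of these lists was at 0 in all libraries, and none was called. The part of tissue make-up or stage in the values of the 10 genes was not tested, and in whole animals fewer cells of a type and less RNA per cell cannot be told apart.

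The desaturases held a smaller share of the mRNA of the 10 genes in the mutants, and *elo-2* and *elo-5* a larger one. The desaturases held 36.3, 38.5 and 38.5% of the summed RPKM of the 10 genes in wild-type libraries and 33.1, 32.1 and 33.9% in mutant libraries, without overlap. Within them the share of *fat-2* went from 15.1 ± 0.370% to 11.6 ± 0.653% and that of *fat-1* from 11.8 ± 0.529% to 8.83 ± 0.355%. The shares of the other desaturases were higher in the mutants, at 4.65 ± 0.589% and 5.52 ± 0.469% for *fat-3* and 6.15 ± 0.258% and 7.04 ± 0.840% for *fat-4*. The share of *elo-2* went from 8.05 ± 0.122% to 11.8 ± 1.96% and that of *elo-5* from 9.48 ± 0.490% to 11.8 ± 0.740%. These shares sum to a fixed total, so a higher share of some genes lowers that of others. The summed RPKM of the 4 desaturases itself was 864 ± 82.2 in wild-type animals and 867 ± 105 in the mutants, so the lower share came with means that differed by less than the spread between replicates. The sum of *elo-1* and *elo-2* was 527, 622 and 571 RPKM in wild-type libraries and 753, 697 and 734 RPKM in mutant libraries. No test was run on these sums and shares.

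**Figure D4:**
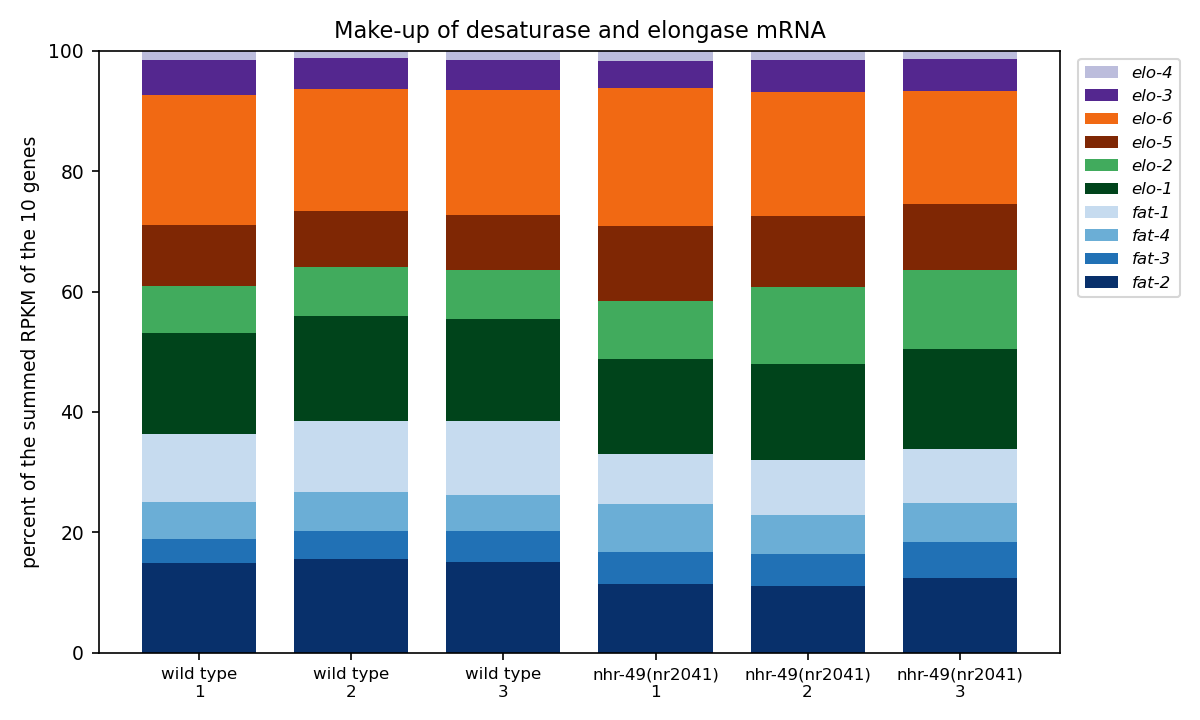
Share of each gene in the summed RPKM of the 10 genes, in percent, for each library. The desaturases (blue, at the bottom) take 36.3 to 38.5% in wild-type libraries and 32.1 to 33.9% in *nhr-49(nr2041)* libraries, and *elo-2* (light green) takes 8.05% on average in wild-type animals and 11.8% in the mutants.

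Ratios within a library do not depend on its scaling. The ratio of *fat-1* to *fat-2* was 0.762, 0.761 and 0.825 in wild-type libraries and 0.737, 0.822 and 0.723 in mutant libraries. The ratio of *fat-3* to *fat-4* was 0.660, 0.731 and 0.880 in wild-type libraries and 0.652, 0.802 and 0.930 in mutant libraries. Each neighbouring pair therefore kept overlapping ratios, although one pair had lower and the other higher means in the mutants. Across the pairs the ratios separated: *fat-3* to *fat-2* was 0.271 to 0.347 in wild-type animals and 0.456 to 0.491 in the mutants, and *fat-1* to *fat-4* was 1.84 to 2.09 and 1.05 to 1.38. These cross-pair ratios were chosen after their values were seen. The ratio of *elo-5* to *elo-6* was 0.463, 0.464 and 0.434 in wild-type libraries and 0.544, 0.575 and 0.586 in mutant libraries, again without overlap, and mutant replicate 1 did not stand above the others here. The ratio of *elo-1* to *elo-2* was 2.105, 2.18 and 2.06 in wild-type libraries and 1.65, 1.24 and 1.27 in mutant libraries.

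**Figure D5:**
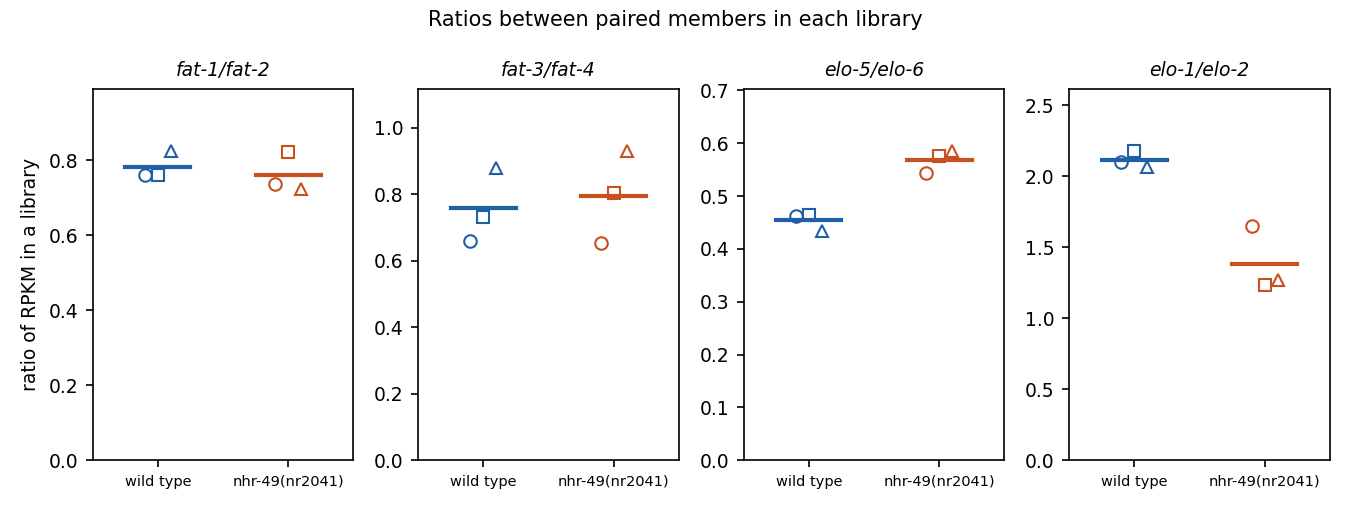
Ratio of the RPKM of paired genes in each library, with wild-type libraries in blue, *nhr-49(nr2041)* libraries in orange and a bar at the mean of 3. The ratios *fat-1*/*fat-2* and *fat-3*/*fat-4* overlap between genotypes, *elo-5*/*elo-6* is higher in every mutant library and *elo-1*/*elo-2* is lower in every mutant library.

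The other enzymes that feed, assist or use this pathway were followed as 9 lists of 43 genes, of which 42 were found in the table and tested. Of the 42, 3 rose (3.32% of all genes) and 4 fell (0.816% of all genes), and their median log2 fold change was 0.08, against 0.10 over all genes. The 3 genes that introduce the first double bond fell. *fat-6*, whose product makes oleic acid, the substrate of FAT-2, was at 359, 376 and 379 RPKM in wild-type libraries against 133, 123 and 123 RPKM in mutant libraries. *fat-5* went from 15.1 ± 2.74 to 0.166 ± 0.115 RPKM, and *fat-7* from 1056 to 1505 reads per wild-type library to 0, 0 and 1 reads in the mutant libraries. Both *fat-5* and *fat-7* met the filter on low values only through their wild-type libraries, where they were high. *acly-1*, an ATP citrate lyase that supplies acetyl-CoA for synthesis, rose from 38.0, 39.1 and 35.6 RPKM to 68.4, 73.6 and 83.9 RPKM (limma estimate 0.98 on the log2 scale, adjusted p = 0.0020), and it passed in all 16 alternatives. The other 4 synthesis genes did not pass. T05H4.4, a homologue of cytochrome b5 reductase, which passes electrons to desaturases, rose from 0.810 ± 0.466 to 4.49 ± 0.818 RPKM (limma estimate 1.62 on the log2 scale, adjusted p = 0.0060). At 0.479, 1.34 and 0.608 RPKM in wild-type libraries, T05H4.4 met the filter on low values only through its mutant libraries. Its neighbour *hpo-19*, another reductase homologue, was far more abundant, at 135 ± 8.69 and 161 ± 15.6 RPKM, and did not pass.

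Elongation needs a reductase, a dehydratase and a further reductase beside the elongase. The 3 genes on the list for these steps, *let-767*, *hpo-8* and *art-1*, had log2 fold changes of 0.21, 0.50 and 0.28, with every mutant library above every wild-type library (17.6% of all genes) and none past the test (lowest adjusted p = 0.117 from limma, for *hpo-8*). Of the 3 remaining elongase genes, *elo-9* came nearest to the threshold. It was at 20.9, 16.2 and 17.6 RPKM in wild-type libraries against 40.5, 28.2 and 28.5 RPKM in mutant libraries (limma estimate 0.78 on the log2 scale, adjusted p = 0.054), and it passed in 2 of 16 alternatives. *elo-7*, the neighbour of *elo-1*, had a log2 fold change of 0.03 and *elo-8* one of 0.34. On the side of the branched-chain precursors, none of 6 genes passed, and the smallest adjusted p was that of *acs-1*, a synthetase that activates branched-chain fatty acids (limma estimate -0.26 on the log2 scale, adjusted p = 0.403).

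Of 7 genes of eicosanoid metabolism, which uses long polyunsaturated fatty acids, 1 rose (3.32% of all genes) and 1 fell (0.816% of all genes). *cyp-29A3*, a cytochrome P450, went from 3.12, 4.62 and 3.39 RPKM to 11.8, 9.72 and 8.63 RPKM (limma estimate 1.23 on the log2 scale, adjusted p = 0.0092, lost without wild-type replicate 3, without mutant replicate 2 and with a replicate block). *ceeh-2*, an epoxide hydrolase, went from 7.50, 8.88 and 7.17 RPKM to 4.49, 1.595 and 1.68 RPKM (limma estimate -1.39 on the log2 scale, adjusted p = 0.049). Mutant replicate 1 lay between the other mutant libraries and the wild type for *ceeh-2*, and the call was lost in 10 of 16 alternatives (adjusted p from 2.15e-04 to 0.182), among them each of the 6 that left out 1 library except that without mutant replicate 1. None of 4 lysophospholipid acyltransferase genes passed, *mboa-6* being nearest (limma estimate 0.17 on the log2 scale, adjusted p = 0.552). Among 7 regulators of desaturation none passed. The nuclear receptor gene *nhr-66* was nearest (limma estimate 0.61 on the log2 scale, adjusted p = 0.153), and it passed in 2 of 16 alternatives. The list genes *elo-7*, *elo-8*, *hpo-19*, *let-767* and *art-1* were named after their values were seen.

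Among all other genes tested, those whose values over the 6 libraries were most like those of *elo-2* were *drp-1*, *sid-2* and *sur-5*. Their Pearson r with *elo-2* on log2(RPKM + 1) was 0.996, 0.996 and 0.995, and 278 genes had an r above 0.95. Their changes differed in size. The log2 fold change was 0.25 for *drp-1* and 0.29 for *sid-2*, neither of them called, and 1.19 for *sur-5*, which was called. *sur-5* went from 60.3, 75.6 and 64.8 RPKM in wild-type libraries to 144, 158 and 159 RPKM in mutant libraries. With 6 libraries in 2 genotypes, a high r can come from the difference between genotypes alone.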

How the data were processed

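mRNA from 6 whole-animal samples, 3 per genotype, was sequenced with paired reads (150 bp). The authors deposited RPKM per gene and library, and mean RPKM per genotype, from CLC Genomics Workbench 9.5, which they used with Baggerly's test and FDR correction. By that test and their own thresholds, the authors listed *elo-5* and *elo-9*, not called here, among the genes regulated both in these mutants and under *hsf-1* RNAi. That list leaves out genes regulated in the mutants alone, so absence from it says nothing about the mutants. In the limma fit the unadjusted p was 0.0071 for *elo-5* and 0.0023 for *elo-9*. The submitters' notes name build WBcel235, but not the mapper's settings or the annotation version, which were not given in the sources used here.

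limma 3.58.1 (lmFit, eBayes with trend and robust, statmod 1.5.0, R 4.3.3) was run on log2(RPKM + 1), with genotype as the only term. Changes on this scale understate those of low genes. Read numbers that were whole within 1e-06 could be computed back from RPKM in 100.0% of 19579 detected genes and made up 95.4 to 97.9% of the implied totals. They served for voom and for read numbers. The deposited genotype means were not used. Alternatives were other pseudocounts, filters, scalings and variance settings, a replicate block, voom, and fits without 1 or 2 libraries. No pair of replicates agreed within sampling noise. For a single value, 3 against 3 libraries cannot give an exact permutation p below 0.10. The fitting script was checked with simulated data. Python 3.11.15, pandas 2.3.3, numpy 2.4.6 and matplotlib 3.10.9 were used.

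The 10 genes, the lists and the alternatives were chosen with earlier results of these data known. Named genes are the 10 members, list genes that passed or had the smallest adjusted p of their list, *nhr-49*, and the 3 genes most like each member that passed. Single marker genes were named after their values were seen. Rows for *dbt-1*, *bckd-1B* and *opt-2* were found as ZK669.4, *tag-173* and *pept-1*, and *acl-10* was not matched. Nucleotide and protein sequences were not used here.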

Additional observations from a re-analysis of the deposited data

How the results depend on the processing

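Over 16 alternatives no member reversed a call, *elo-2* kept its direction in all and its call in 14, and *elo-5* gained one in 1. The signs of *elo-1* and *elo-3*, which were not called, turned when library medians were set equal (-0.01 and -0.05). Leaving out 1 library at a time gave 0 to 1 members higher (0 when either mutant replicate 2 or wild-type replicate 3 was left out) and 63 to 138 genes lower, against 114 with all 6. Without wild-type replicate 2 and mutant replicate 1 together, 2 members, 950 genes higher and 350 genes lower were called. With the unadjusted p, 3 members were higher, and 1521 genes were higher and 318 lower. Whether same-numbered libraries were grown together is not given in the sources used here. Deviations of same-numbered libraries from their group means had correlations of -0.33, -0.16 and 0.34. Deviations within a group of 3 depend on each other, so these values cannot decide it. With replicate number as a block 396 genes changed in place of 577, 64 of them lower, and *elo-2* kept its call (adjusted p = 0.033 from limma); the causes were not tested. With 3 libraries per genotype the 95% intervals of 7 of the 9 members that did not pass included 0. Those of *fat-3* and *elo-5* did not.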
